A study of Homo sapiens with 4 samples.

Results

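Albumin and transthyretin, the apolipoproteins, the fibrinogen chains and many serpins are secreted proteins best known from liver. Several of the apolipoproteins are also made by enterocytes, and some serpins act inside cells. Transcripts of all these genes were followed in RNA that came down with beta-catenin from nuclei of HT-29 and CaCo-2 cells. Both lines were established from human colon adenocarcinoma. Members were taken by gene name alone: ALB, AFP, TTR, the APOA, APOB, APOC, APOE, APOH and APOM names, FGA, FGB, FGG and every numbered SERPIN of clades A to I, with all their isoforms. This rule found 9 of the 9880 transcripts listed for HT-29, from 7 genes, and 23 of the 11943 listed for CaCo-2, from 14 genes. Over both lines there were 31 different transcripts of 16 genes. RefSeq holds 52 protein-coding symbols that match the rule, 12 of them apolipoproteins and 34 serpins. For the other 36 symbols it found 0 listed transcripts in either line.

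Each line gave 1 library of input RNA, prepared without antibody, and 1 library of RNA immunoprecipitated with a beta-catenin antibody (RIP, RNA immunoprecipitation), so there were 4 libraries and 1 per group. Both lines were untreated, and nuclei were isolated before lysis. Each comparison between them is one between single established lines. No library from a control antibody was used here. There is no replicate error, no transcript was tested here, and sequencing depth is unknown from these tables. Levels are FPKM (fragments per length of transcript, scaled to the size of the library) of a single transcript model. The lowest deposited fold of RIP over input is 1.5 in either table, so the direction of every ratio below was fixed by that selection and is no finding.

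Plasma carrier proteins such as albumin bind fatty acids, hormones and vitamins in blood. Apolipoproteins wrap lipid into particles that enterocytes and hepatocytes secrete, and fibrinogen is the soluble precursor of the fibrin clot. Most serpins trap a serine protease by a conformational change that inactivates both partners, while a few, such as SERPINH1, act as chaperones or carriers. CaCo-2 cells are widely used as a model of the enterocyte because confluent cultures form a brush border and secrete apolipoproteins, whereas HT-29 cells stay largely undifferentiated in standard culture. The labels give no culture stage for either line.

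The promoters of ALB and FGG are shown because these genes gave the highest ratio and the highest level among the CaCo-2 members and were listed in that line alone. Of the 16 member genes, 11 had entries in the RefSeq promoter table (GRCh38.p14, 250 bases before to 50 bases after a start), with 16 promoters in all; APOA1, APOB, SERPINF2, SERPING1 and TTR had none. The CCAAT box, a common promoter element, was searched on both strands as CCAAT, and its matches are in capitals here.
ALB, chr4:73404037-73404336, plus strand: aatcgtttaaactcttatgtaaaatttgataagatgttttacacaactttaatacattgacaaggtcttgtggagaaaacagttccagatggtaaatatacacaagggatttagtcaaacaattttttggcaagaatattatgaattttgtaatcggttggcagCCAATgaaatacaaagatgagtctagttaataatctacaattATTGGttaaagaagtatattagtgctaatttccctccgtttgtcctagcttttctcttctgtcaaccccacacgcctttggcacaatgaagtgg
FGG, chr4:154612607-154612906, minus strand: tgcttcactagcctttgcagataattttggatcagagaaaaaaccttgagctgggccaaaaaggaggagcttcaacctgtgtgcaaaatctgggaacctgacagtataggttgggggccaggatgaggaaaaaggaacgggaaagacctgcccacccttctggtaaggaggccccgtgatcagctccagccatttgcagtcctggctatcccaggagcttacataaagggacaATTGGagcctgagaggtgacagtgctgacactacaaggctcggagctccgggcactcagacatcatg
The ALB window holds 2 matches, which begin 86 and 44 bases before the start, and the FGG window holds 1, which begins 17 bases before it. Among the 16 member promoters 4 held a match (ALB, FGG, SERPIND1 and SERPINH1), against 34.6% of all 35116 promoters of the table. TATAAA, searched the same way, was found in 1 of the 16, a SERPINB6 promoter, and in 11.5% of all. A match describes letters in this window, and the RNA tables do not measure binding at it.

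Most member transcripts were listed in 1 line only, as were most transcripts of both tables. Of the genes, 5 were listed in both lines (APOC1, SERPINA1, SERPINA5, SERPINB1 and SERPINB6), 2 in HT-29 alone (SERPINA4 and SERPINH1) and 9 in CaCo-2 alone (ALB, TTR, APOA1, APOA2, APOB, FGG, SERPIND1, SERPINF2 and SERPING1). The shared genes were 71.4% of the HT-29 member genes and 35.7% of the CaCo-2 member genes. Over all listed genes the 3843 shared were 59.2% of HT-29 and 51.6% of CaCo-2. Only 1 member transcript, a SERPINA5 isoform, was listed in both tables, 11.1% of the HT-29 and 4.35% of the CaCo-2 members, against 19.5% and 16.1% of all listed transcripts. A gene that is not listed in a line may still be expressed there, since transcripts below that fold limit are not in its table. These differences between lines were not tested.

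**Figure D1:**
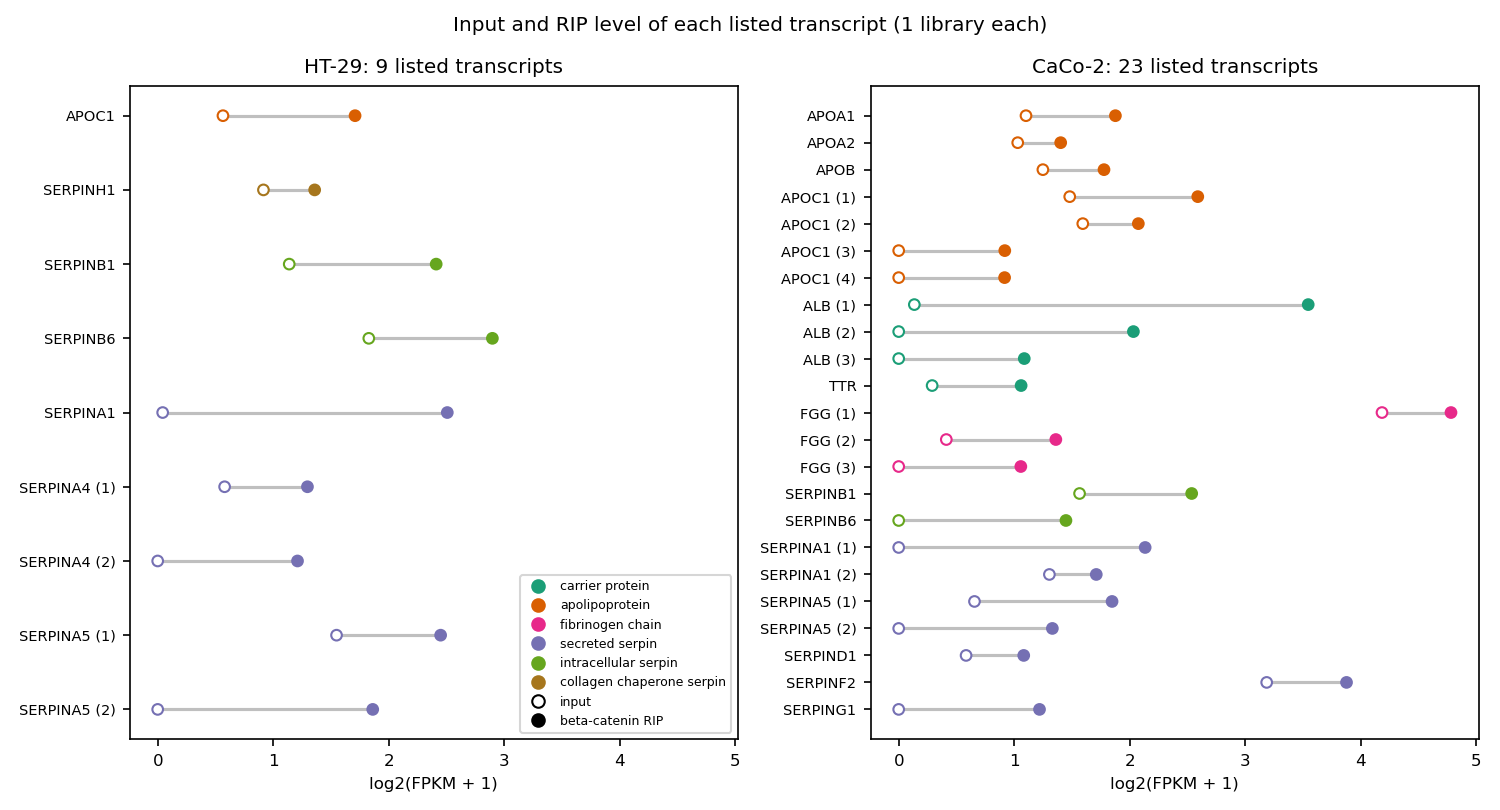
Level of each listed member transcript in input (open circles) and beta-catenin RIP (filled circles) of HT-29 and CaCo-2, as log2(FPKM + 1), 1 library each; colours give the role and numbers in brackets separate isoforms of a gene by falling RIP level. In CaCo-2 the full-length FGG and SERPINF2 transcripts are high in both libraries, whereas the longest ALB transcript is near 0 in input and at 10.7 FPKM in the RIP.

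Albumin gave the highest ratio of any member in CaCo-2. The full-length protein-coding ALB transcript ENST00000295897 (hg19, chromosome 4, 74269956 to 74287129, plus strand) stood at 10.7 FPKM in the RIP, from 0.0983 in input. Its log2 ratio, taken on the log2 scale after 1 FPKM was added to both levels, was 3.41, and 98.8% of the transcripts listed for CaCo-2 had a lower one. Its p is 0.194 and its q 0.823 in the authors' deposited table, so this ratio does not pass their test. Both short processed transcripts that start within the same first stretch of the gene had input listed at 0. ENST00000510166 (ending at 74274536) was at 3.09 FPKM in the RIP, and ENST00000514786 (ending at 74275197) at 1.12. All 3 listed ALB isoforms were thus at or near 0 in input, and their levels summed to 0.0983 FPKM there and 14.9 in the RIP. Any ALB isoform below the fold limit would not be listed, so the input sum may leave out ALB RNA. Cuffdiff estimates each isoform from reads that overlapping isoforms share, and how reads were split among these 3 was not analysed here. TTR, which carries thyroid hormone and retinol-binding protein, was listed by a retained-intron transcript (chromosome 18, 29171840 to 29175812) at 1.08 FPKM in the RIP, from 0.222 in input. For AFP the rule found 0 listed transcripts in either line.

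Apolipoproteins were listed mainly in CaCo-2, with 7 transcripts of 4 genes against 1 transcript in HT-29, and their levels lay within a few FPKM. APOC1, a small exchangeable apolipoprotein, was the only one listed in both lines, each time by other isoforms. In HT-29, ENST00000252491 (chromosome 19, 45417921 to 45422606, plus strand) had 2.27 FPKM in the RIP and 0.479 in input. In CaCo-2, ENST00000589781 had 5.02 in the RIP and 1.79 in input, and is the only apolipoprotein transcript of that line past 2-fold on the log2 ratio, at 1.11, as were 40.8% of all CaCo-2 transcripts that reached 1 FPKM in at least 1 library. A second protein-coding isoform there, ENST00000592885, had 3.21 in the RIP and 2.02 in input. The other isoforms, ENST00000592535 and the nonsense-mediated-decay transcript ENST00000592176, had input listed at 0 and lay at 0.888 and 0.890 FPKM in the RIP. These are the 2 member transcripts below the minimum of 1 FPKM used for counting. All 4 CaCo-2 isoforms overlap within 1 locus, so their levels are not independent of each other.

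The structural apolipoproteins of chylomicrons and high-density lipoprotein were listed in CaCo-2, with ratios below the median of the table. APOB, the non-exchangeable scaffold of chylomicrons, was listed by a protein-coding model on chromosome 2 (21247042 to 21266834, minus strand) with 2.43 FPKM in the RIP and 1.38 in input. This model covers the 5′ part of a locus that runs from 21224301 to 21266945. APOA1, the main protein of high-density lipoprotein (chromosome 11, 116706467 to 116708326), had 2.67 in the RIP and 1.15 in input. APOA2, its partner on the same particles (chromosome 1, 161192086 to 161193418), had 1.64 in the RIP and 1.04 in input. Their log2 ratios were 0.53, 0.77 and 0.37, where the median of all CaCo-2 transcripts was 0.82. The authors' deposited table gives q of 1 for all 3.

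FGG, the gamma chain of fibrinogen, reached the highest level of any member in any library. Its protein-coding transcript ENST00000404648 (chromosome 4, 155525286 to 155534001, minus strand) had 26.5 FPKM in the CaCo-2 RIP and 17.2 in input. In the RIP, 98.6% of listed CaCo-2 transcripts were lower. The fold was 1.54, just inside the limit of the table. The authors' deposited table gives p as 0.0135 and q as 0.289. A pair of short retained-intron FGG transcripts lay far lower. ENST00000464532 had 1.57 FPKM in the RIP and 0.331 in input, and ENST00000484695 had 1.08 in the RIP and was listed at 0 in input. For FGA and FGB, the other chains, the rule found 0 listed transcripts in either line.

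SERPINA1, or alpha-1-antitrypsin, the main inhibitor of neutrophil elastase in plasma, had the highest ratio of any member in HT-29. There ENST00000449399 (chromosome 14, 94844786 to 94856987, minus strand) had 4.68 FPKM in the RIP and 0.0302 in input, a log2 ratio of 2.46. In CaCo-2 a different protein-coding isoform, ENST00000554720 (94849000 to 94855002), had 3.39 FPKM in the RIP and was listed at 0 in input. A longer CaCo-2 isoform that spans nearly the whole gene, ENST00000440909 (94843084 to 94856974), had 2.27 in the RIP and 1.47 in input. In both lines, then, 1 isoform was at or near 0 in input and a few FPKM in the RIP, and in CaCo-2 another was above 1 FPKM in input. For the HT-29 isoform q is 0.818 in the authors' deposited table, and for the CaCo-2 isoforms it is 0.959 and 1.

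SERPINA5, the protein C inhibitor, gave the one member transcript listed in both lines. ENST00000554866 (chromosome 14, 95047731 to 95059452, plus strand) had 4.46 FPKM in the HT-29 RIP over 1.92 in HT-29 input. In CaCo-2 the same transcript had 2.60 in the RIP and 0.576 in input. It was lower in CaCo-2 in both kinds of library, by 0.89 on the log2 scale in input and by 0.60 in the RIP. Over all 1928 transcripts listed in both tables, the median shift between lines was 0 in input, and RIP levels in CaCo-2 fell by 0.26 relative to HT-29. The tables come from separate comparisons of RIP with input, so a level set across them is a description. For HT-29 the authors' deposited table has a p of 0.0304 (q 0.373), and for CaCo-2 a p of 0.0208 (q 0.360).

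The SERPINA4 and SERPINA5 genes lie side by side on chromosome 14, and a SERPINA5 transcript listed in CaCo-2 overlaps the SERPINA4 transcripts listed in HT-29. SERPINA4, or kallistatin, an inhibitor of tissue kallikrein, was listed in HT-29 by ENST00000557004 (95027428 to 95036239) with 1.31 FPKM in the RIP and 0 in input. A second SERPINA4 transcript, ENST00000555095 (95027779 to 95036250), had 1.46 in the RIP and 0.494 in input. In CaCo-2, ENST00000554220, which carries the name SERPINA5, starts at 95027779, the same base as that SERPINA4 transcript, and runs to 95054215. This model therefore begins at the start of a listed SERPINA4 transcript and ends within the span of SERPINA5 ENST00000554866. It crosses the 11480 nucleotides between the end of the listed SERPINA4 transcripts and the start of ENST00000554866. It had 1.51 FPKM in the RIP and was listed at 0 in input. How its reads were divided from those of SERPINA4 was not analysed here, so the listing of SERPINA4 in HT-29 and of this SERPINA5 model in CaCo-2 may not name separate genes. A further HT-29 isoform of SERPINA5, ENST00000556775 (95047734 to 95056452), had 2.63 FPKM in the RIP, and was also listed at 0 in input.

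The other secreted serpins were listed in CaCo-2. SERPINF2, alpha-2-antiplasmin, the main plasma inhibitor of plasmin (chromosome 17, 1646130 to 1658559), had 13.7 FPKM in the RIP and 8.10 in input. It was second to FGG among members in both CaCo-2 libraries. The authors' deposited table gives its p as 0.00587 and its q as 0.175. SERPIND1, heparin cofactor II, which inhibits thrombin (chromosome 22, 21128167 to 21142008), had 1.12 in the RIP and 0.498 in input. SERPING1, the C1 inhibitor of complement and contact activation (chromosome 11, 57365744 to 57382054), was listed by a nonsense-mediated-decay transcript at 1.33 FPKM in the RIP and 0 in input.

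Clade B serpins lack a classical signal peptide and act mainly inside cells, and both listed members were present in both lines through different isoforms. SERPINB1, an inhibitor of neutrophil proteases, was listed by processed transcripts on chromosome 6, minus strand. In HT-29 this was ENST00000468511 (2833746 to 2838233), with 4.32 FPKM in the RIP and 1.201 in input. In CaCo-2 it was ENST00000476896 (2836342 to 2842082), with 4.80 in the RIP and 1.96 in input. SERPINB6, a broadly expressed inhibitor of trypsin-like proteases, was listed by protein-coding isoforms that end at the same base, 2948393. ENST00000335686 had 2.55 FPKM in HT-29 input and reached 6.45 in the RIP, the highest RIP level among the HT-29 members. ENST00000380529 had 1.73 FPKM in the CaCo-2 RIP and was listed at 0 in input, and its q is 0.0483 in the authors' deposited table. This was the 1 member of 23 with q at or below 0.05 in CaCo-2, where 2.24% of all listed transcripts reached it. In HT-29 the number was 0 of 9, against 3.08% of all, in the authors' deposited table, and 3 of the 9 had an unadjusted p at or below 0.05 there, against 17.0% of all. SERPINH1, also called HSP47, a collagen chaperone of the endoplasmic reticulum, was listed in HT-29 (chromosome 11, 75273415 to 75283827) with 1.56 FPKM in the RIP and 0.886 in input, the lowest ratio of that line's members.

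**Figure D2:**
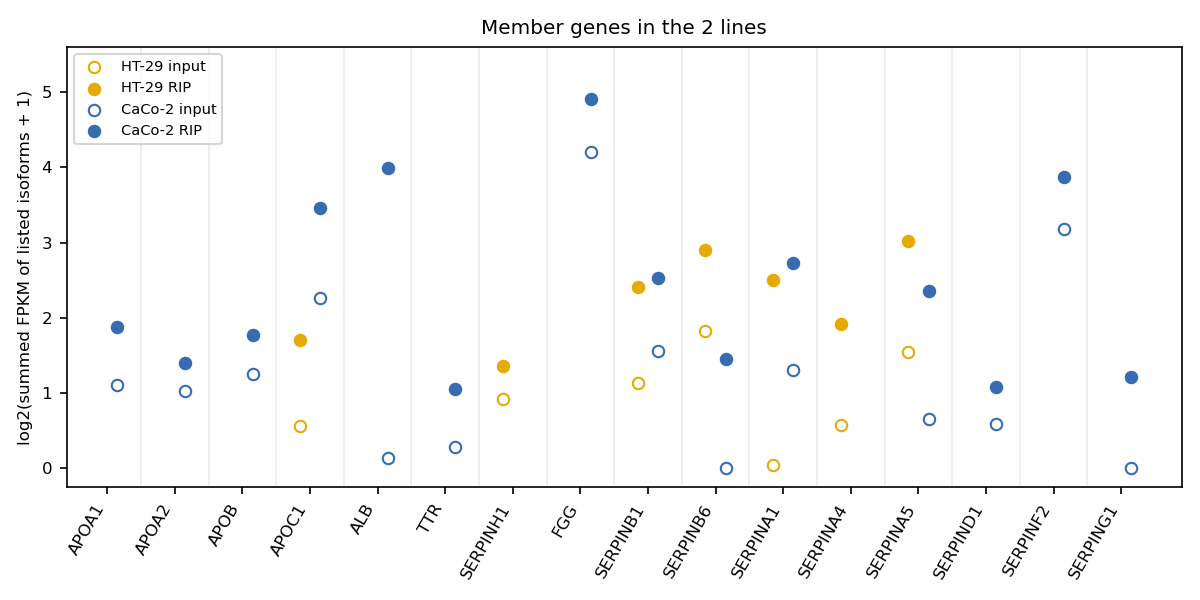
Summed level of the listed isoforms of each member gene, as log2(summed FPKM + 1), in input (open) and RIP (filled) of HT-29 (yellow) and CaCo-2 (blue); a gene with no point in a line had no listed transcript there. Of the 5 genes with points in both lines, SERPINA5 and SERPINB6 are higher in HT-29 in both libraries, and APOC1, SERPINA1 and SERPINB1 in CaCo-2, over isoforms that mostly differ between the lines.

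Summed over listed isoforms, an alternative added after the values were seen, the 5 shared genes did not order the lines alike. APOC1 reached 10.004 FPKM in the CaCo-2 RIP over 4 isoforms and 2.27 in the HT-29 RIP over 1 isoform. For SERPINB6 the RIP sums were 6.45 FPKM for HT-29 and 1.73 for CaCo-2. SERPINA5 was at 7.09 in HT-29 and 4.11 in CaCo-2, over 2 isoforms in each. SERPINA1 stood at 4.68 and 5.66 FPKM in the RIPs of HT-29 and CaCo-2, and SERPINB1 at 4.32 and 4.80. Since the sums run over the isoforms that were listed, a gene's sum also moves with how many were.

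Counted against the rest of each table, the members' shares past 2-fold lay somewhat above the background, on few transcripts and not under every setting. In HT-29, 6 of 9 members (66.7%) reached 2-fold on the log2 ratio, against 56.0% of all transcripts. In CaCo-2, 10 of the 21 that passed the minimum of 1 FPKM in at least 1 library did so (47.6%), against 40.8%. The median log2 ratio of the members was 1.14 in HT-29, the same as over all transcripts to that precision, and 0.97 in CaCo-2 against 0.82. A transcript listed at 0 in input passes 2-fold by construction once it passes the minimum. Such transcripts made up 2 of the 6 in HT-29 and 7 of the 10 in CaCo-2. Without them, 4 of 7 HT-29 members passed (57.1%), against 35.5% of all, and 3 of 14 CaCo-2 members (21.4%), against 19.5%. The 3 in CaCo-2 were ALB, APOC1 and SERPINA5. With at least 1 FPKM in both libraries, the CaCo-2 share was below the background, at 1 of 9 against 13.1%. With so few transcripts, several of them isoforms of 1 gene, these counts do not set the members apart from the other listed transcripts.

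**Figure D3:**
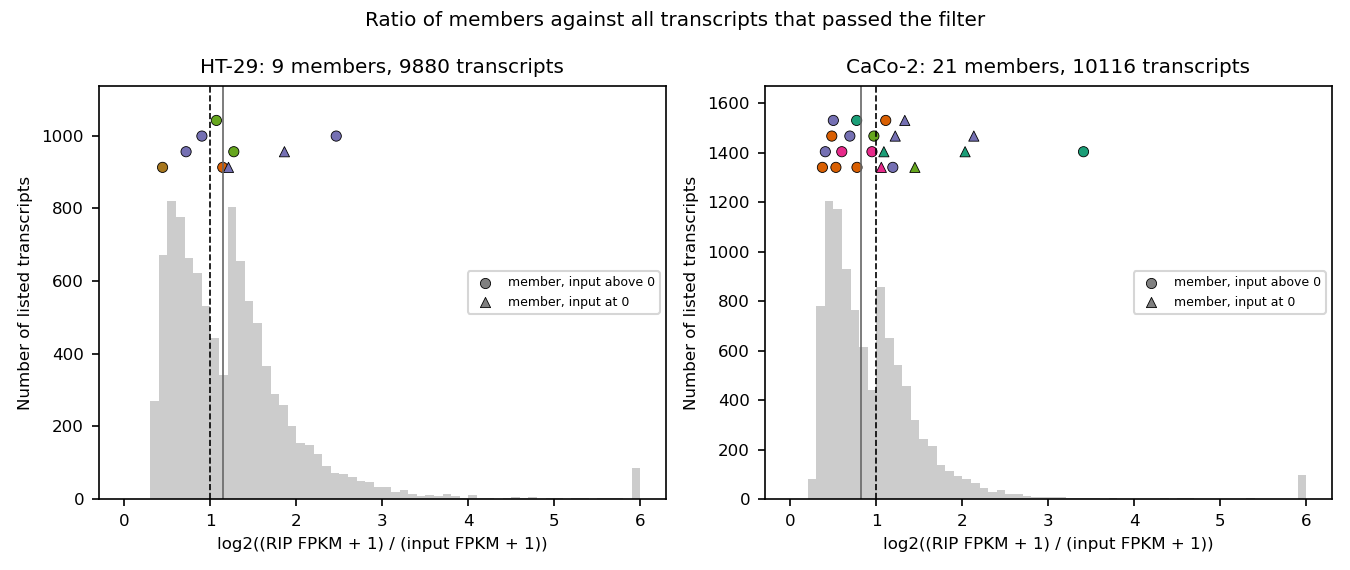
Log2 ratio of RIP to input (pseudocount 1 FPKM) of each member that passed the filter (circles, input above 0; triangles, input listed at 0; colours give the role as in the plot of levels; height above the histogram has no meaning) over the histogram of all transcripts that passed it, in HT-29 and CaCo-2; ratios of 6 or more are in the last bin. The dashed line marks 2-fold and the solid line the median of all transcripts, 1.14 in HT-29 and 0.82 in CaCo-2; members lie on both sides of it, and ALB at 3.41 and SERPINA1 at 2.46 lie farthest right.

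By transcript class, the members leaned on protein-coding models. Of the HT-29 members 8 of 9 were protein-coding and 1 was a processed transcript, where 49.6% of all listed transcripts were protein-coding. In CaCo-2, 15 of 23 were protein-coding, 3 were processed transcripts, 3 retained introns (2 of FGG and the TTR transcript) and 2 nonsense-mediated-decay transcripts (APOC1 and SERPING1). Protein-coding models made up 43.0% of all CaCo-2 transcripts and retained introns 22.7%. Genes of this set are protein-coding by the way it was chosen, whereas the table also holds non-coding genes, so the shares have different bases.

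Among members with input above 0, the largest folds did not come with a low p in the authors' deposited table. Among the 21 member transcripts with input above 0, 7 from HT-29 and 14 from CaCo-2, the 2 highest folds were those of SERPINA1 in HT-29 (155-fold, from 0.0302 FPKM) and ALB in CaCo-2 (109-fold, from 0.0983 FPKM), with p of 0.353 and 0.194 in the authors' deposited table. Both folds rest on an input level far below 1 FPKM. The members with p at or below 0.05 and input above 0 were SERPINF2, FGG and SERPINA5 in CaCo-2, at 1.69-, 1.54- and 4.51-fold, and SERPINA5 in HT-29, at 2.32-fold, in the authors' deposited table. None of these 4 had q at or below 0.05 in that table. With transcripts listed at 0 in input included, 5 of the 23 CaCo-2 members had an unadjusted p at or below 0.05 in the authors' deposited table, against 14.3% of all. Those listed at 0 were SERPINB6 (p 0.000763) and SERPING1 (0.00538). In HT-29 they were SERPINA4 ENST00000557004 (0.00746) and SERPINA5 ENST00000556775 (0.0241) in that table. The other members listed at 0 in input had p above 0.05 there. An association between ratio and p was not tested.

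**Figure D4:**
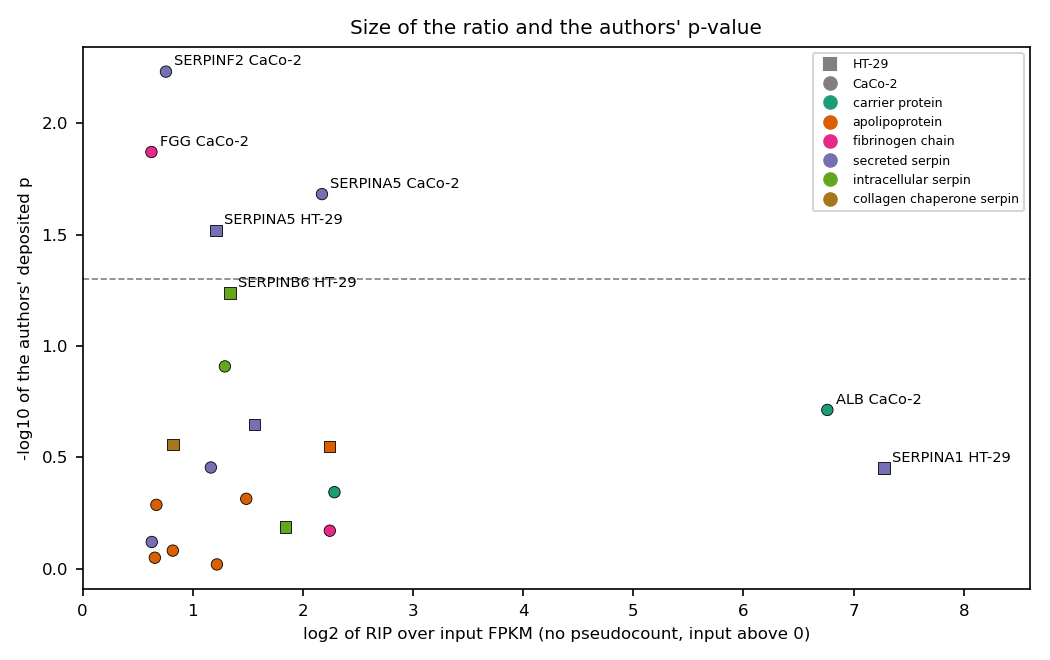
Log2 of RIP over input FPKM (no pseudocount) against -log10 of the p-value in the authors' deposited table, for the 7 HT-29 members (squares) and 14 CaCo-2 members (circles) with input above 0, coloured by role; the dashed line marks p of 0.05. ALB and SERPINA1, at 109-fold and 155-fold, lie below that line, whereas SERPINF2 and FGG lie above it at 1.69-fold and 1.54-fold.

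Other genes of the same systems were also listed in both lines. Of 43 genes for lipoprotein assembly and chylomicron secretion, CaCo-2 listed 20 and HT-29 10. Over all genes, 7452 were listed for CaCo-2 and 6489 for HT-29, and the lowest RIP level listed was 0.842 and 1.31 FPKM. Differences between lines in the number of genes listed were not tested for any list. Past 2-fold were 22 of 33 HT-29 transcripts (background 56.0%) and 17 of 39 from CaCo-2 (40.8%), with median log2 ratios of 1.13 and 0.82. P4HB, the disulfide isomerase subunit of the microsomal triglyceride transfer complex, had 37.5 FPKM in the HT-29 RIP over 16.6 in its input. SEC23B, a COPII coat subunit, had 2 CaCo-2 transcripts with q at or below 0.05 in the authors' deposited table, at 5.19 against 1.70 FPKM (q 0.0280) and at 1.44 against 0 (q 0.0116). SEC24C, another COPII subunit, was at 1.95 against 0, with q of 0.00734 in that table. The other listed CaCo-2 transcripts of both genes had q above 0.05. For the whole list, 3 of 44 CaCo-2 transcripts had q at or below 0.05 in the authors' deposited table, against 2.24% of all. In HT-29 it was 0 of 33, against 3.08%. DGAT1, which makes triglyceride, had a retained-intron transcript at 6.94 FPKM in the HT-29 RIP over 0.957 in its input, and no protein-coding transcript listed in either line.

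Of 45 coagulation and complement genes, CaCo-2 listed 15, with 7 of 25 transcripts past 2-fold (background 40.8%), and HT-29 listed 7, with 8 of 13 (56.0%). By RIP level both lists were led by regulators of complement on the cell surface. CD59, which blocks the membrane attack complex, had 15.1 FPKM in the RIP of HT-29 and 6.39 in input, and CD46, a cofactor for cleavage of complement, had 14.2 FPKM in the CaCo-2 RIP and 7.13 in its input. Liver-made factors of the clotting and contact systems were F2, F7, F10, KNG1, PROC and PROS1 in CaCo-2, and F12 in both lines. Of these, F2, F10 and F12 were listed by retained introns alone. F12 had 2.59 FPKM in the HT-29 RIP over 1.72 in input, and 1.47 over 0.744 for CaCo-2. PROC, protein C, the protease that SERPINA5 inhibits, had 4.52 FPKM in the CaCo-2 RIP and 1.82 in its input. TFPI, the tissue factor pathway inhibitor, reached 8.77 FPKM in the HT-29 RIP from 0.000527 in input, and the authors' deposited table gives q as 0.9998. The higher of its 2 CaCo-2 transcripts reached 4.08 in the RIP, was listed at 0 in input and has a q of 0.144 there. None of the listed transcripts had q at or below 0.05 there.

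Of 28 other plasma protein genes, 2 were listed in HT-29 (AZGP1 and LRG1) and 5 in CaCo-2 (AHSG, FGL1, ITIH1, ITIH2 and SEPP1), with 0 of 2 (background 56.0%) and 3 of 6 (40.8%) transcripts past 2-fold. AHSG, fetuin-A, had 30.1 FPKM in the CaCo-2 RIP and 17.5 in its input, a level above that of FGG. SEPP1, selenoprotein P, had 3 transcripts listed in CaCo-2, the highest a processed transcript at 5.86 FPKM in the RIP and 0.696 in input. FGL1, a fibrinogen-like hepatokine, had 1.38 FPKM in the RIP and was listed at 0 in input. The authors' deposited table gives its q as 0.0349. This was the 1 q at or below 0.05 among 7 CaCo-2 transcripts of the list (2.24% of all), with 0 of 2 in HT-29 (3.08%).

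Among 28 transcription factors of hepatocytes and enterocytes, CaCo-2 listed 10, with 5 of 13 transcripts past 2-fold (background 40.8%), and HT-29 listed 8, with 7 of 11 (56.0%). In CaCo-2 alone 7 were listed (CEBPA, FOXA1, FOXA2, NR2F2, NR5A2, PROX1 and RXRA), and in HT-29 alone 5 (HNF4G, KLF4, ONECUT2, ZBTB20 and ZHX2). Over all listed genes, 59.2% of those in HT-29 and 51.6% of those in CaCo-2 were listed in both lines. The split of these factors between lines was not tested. CEBPA had 2.17 FPKM in the CaCo-2 RIP and 0.828 in its input. HNF4G had a processed transcript at 4.29 FPKM in the HT-29 RIP over 2.03 in its input. AHR, the aryl hydrocarbon receptor, had a CaCo-2 nonsense-mediated-decay transcript at 2.43 FPKM in the RIP and 0 in input, and the authors' deposited table gives its q as 0.000268. KLF4, a factor of epithelial differentiation, was listed at 0 in HT-29 input and reached 1.42 FPKM in the RIP (q 0.0212 in that table). Transcripts of the list with q at or below 0.05 there numbered 1 of 15 in CaCo-2 (2.24% of all) and 1 of 11 in HT-29 (3.08%). Of 31 serpin target proteases, CaCo-2 listed 11, with 3 of 15 transcripts past 2-fold (40.8%), and HT-29 listed 7, with 7 of 12 (56.0%). CTSB, cathepsin B, led both lines. It had 10.8 FPKM in the HT-29 RIP over 3.49 in input (q 0.0464 in the authors' deposited table), and 24.7 over 14.8 for CaCo-2. Among the protease transcripts, 1 of 12 in HT-29 (3.08% of all) and 0 of 17 in CaCo-2 (2.24%) had q at or below 0.05 there.

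Markers of colon epithelium were listed for 7 of 12 genes in HT-29, summing to 76.0 FPKM in input and 190 in the RIP, and for 5 of 12 in CaCo-2, summing to 38.6 and 87.7. KRT18 led both, with 54.3 FPKM in the HT-29 RIP over 14.7 in input, and 32.0 over 11.6 for CaCo-2. Brush border markers of enterocytes were listed for 1 of 10 genes in HT-29 (SLC5A1) and 3 of 10 in CaCo-2 (FABP1, DPP4 and CDHR5), summing to 1.45 and 6.001 FPKM in the RIP. APOA4 and the sucrase-isomaltase gene were not among them. Of these genes, only CDHR5 was listed by protein-coding transcripts. FABP1 and SLC5A1 were listed by retained introns and DPP4 by a nonsense-mediated-decay transcript. Goblet cell markers were listed for 1 of 5 genes in HT-29 (TFF3) and 2 of 5 in CaCo-2 (TFF3 and AGR2), TFF3 by a processed transcript and AGR2 by a retained intron. Hepatocyte markers were listed for 0 of 10 genes in HT-29 and 1 of 10, AHSG, in CaCo-2. Markers of blood and plasma cells were listed for 0 of 6 HT-29 genes and 1 of 6 for CaCo-2, CD74, at 0 in input and up to 1.89 FPKM in the RIP. A marker that is not listed may be expressed below the fold limit or below the lowest RIP level listed for that line. Its part in the members' values was not tested.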

How the data were processed

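RNA immunoprecipitated with beta-catenin and input RNA were sequenced from 2 cell lines, 1 library per group. TopHat2 2.0.8, Bowtie2, Cuffdiff, Cufflinks, CASAVA 1.4 and build hg19 are listed, without roles, in the submitters' processing notes; strandedness is not given in the sources used here. The authors deposited 1 Cuffdiff table per line, which compares RIP with input of that line and gives FPKM per Ensembl transcript. Each also holds the authors' own p-values and q-values from 1 library per side. Other deposited columns, the log2 fold and a test score, were not used. Unmapped columns of sample values numbered 0.

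A pseudocount of 1 FPKM was added to both libraries before the log2 ratio of RIP to input was taken, so low transcripts have understated ratios. Counts at 2-fold cover transcripts that reach 1 FPKM in the RIP or the input. Deposited starts count from 0, as the spans of mitochondrial tRNAs show, and were raised by 1. All listed member transcripts are described. For each other list, up to 4 genes with the highest RIP FPKM per line come under the rule for named genes; further genes named, such as those with q at or below 0.05, were chosen after their values were seen. Members and lists were chosen with earlier results of these data known. Some genes of the transcription factor list are not reported here. The planned tests are descriptions, because no group has a replicate. The ratio and count were checked on simulated data without noise, made from HT-29 input levels above that of any HT-29 member. That check does not cover the low levels of most members. All 16 member names matched RefSeq symbols. Python 3.11.15, pandas 2.3.3, numpy 2.4.6 and matplotlib 3.10.9 were used.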

Additional observations from a re-analysis of the deposited data

How the results depend on the processing

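The members' share at 2-fold stood above or below that of all transcripts, depending on the setting. With at least 1 FPKM in both libraries HT-29 had 2 of 3 (25.2% of all transcripts) and CaCo-2 1 of 9 (13.1%). At 4-fold the members numbered 1 of 9 for HT-29 (11.6% of all) and 3 of 21 for CaCo-2 (4.93%). Without transcripts listed at 0 in input CaCo-2 had 3 of 14 (19.5% of all), and with 1 transcript per gene 6 of 14 (41.0%). In HT-29 those settings gave 4 of 7 (35.5%) and 4 of 7 (55.6%). A pseudocount of 0.1 FPKM gave 8 of 9 (74.8% of all) and 15 of 21 (67.2%); of the 30 members that passed the filter, 23 kept their side of 2-fold under it and 7 passed only with it. No filter gave 6 of 9 (56.0%) and 10 of 23 (34.6%). The deposited fold without a pseudocount, an alternative chosen after seeing the data, gave 6 of 7 (66.5%) and 8 of 14 (60.95%). The members' share was thus below that of all transcripts at 4-fold for HT-29, and for CaCo-2 on the deposited fold and where both libraries had to reach 1 FPKM.

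The median log2 ratio of HT-29 members moved from 1.14 to 1.76 with a pseudocount of 0.1, and was 1.07 with at least 1 FPKM in both libraries, without inputs at 0, and with 1 transcript per gene. In CaCo-2 it moved from 0.97 to 1.88, 0.60, 0.73 and 0.87 under the same settings in that order, and to 0.95 with no filter. The members' median was below that of all transcripts with a pseudocount of 0.1 in HT-29 (1.84 for all), with 1 transcript per gene in HT-29 (1.12), and, where both libraries had to reach 1 FPKM, in CaCo-2 (0.61). Matched by gene name, 5 members were shared instead of 1. The level of the shared SERPINA5 transcript in CaCo-2 relative to HT-29 was -0.76 in the RIP and -1.58 in input with a pseudocount of 0.1, and -0.34 in the RIP after the lines were set to an equal median. The direction of every ratio of RIP to input is fixed by the selection of the tables, and the shared SERPINA5 transcript kept its order between lines under the alternatives run. Depth is unknown, and with 1 library per group no error between libraries can be given. No paired analysis was possible because each group holds 1 library and the labels give no replicate numbers.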
